A study of Mus musculus with 12 samples.

Results

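The genes described here encode the stress sensors Atf6 and Ire1 (listed as Ern1) of the endoplasmic reticulum (ER), the transcription factor Xbp1 that Ire1 activates, the membrane-bound transcription factors of the CREB3 family (Creb3, Creb3l1, Creb3l2, Creb3l3 and Creb3l4), and the proteases Mbtps1 and Mbtps2 that cut such factors free in the Golgi. Every non-control probe that the scanner files list under these gene names was taken. This gave 17 of 41174 probes and 10 of 27962 gene names, and no gene of the set was absent from the array.

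The probes were read in microdissected hypertrophic zones of the tibial growth plate from mice aged 14 days, with 3 mice in each of 4 groups and 1 array per mouse. Schmid mice were homozygous for Col10a1 p.Asn617Lys, a knock-in mutation that makes collagen X misfold. Cog mice carried ColXTgcog, a transgene in which the Col10a1 promoter drives a misfolding thyroglobulin in hypertrophic chondrocytes, and hemizygous and homozygous carriers were not told apart. Wildtype littermates were kept as a separate group for each background, here called wildtype (Schmid) and wildtype (Cog). All RNA went through linear amplification before Cy3 labelling and hybridization to single-colour Agilent 44K arrays. In such bulk samples, fewer cells of a type and less RNA per cell cannot be told apart.

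Cells sense misfolded protein in the ER through membrane proteins whose inner domains face the lumen. Ire1 is an RNase that splices the Xbp1 transcript, whereas Atf6 moves to the Golgi, where Mbtps1 (site-1 protease) and then Mbtps2 (site-2 protease) release its cytosolic part to enter the nucleus. The CREB3 family members have the same build as Atf6, a bZIP factor anchored in the ER membrane, and are released by the same proteases. Creb3 is also called Luman, Creb3l1 OASIS, Creb3l2 BBF2H7 and Creb3l3 CREB-H. Creb3l2 serves collagen secretion in cartilage, Creb3l1 serves it in bone, and Creb3l3 is best known from liver. Splicing acts on the Xbp1 transcript, and cleavage acts on the Atf6 and CREB3 proteins. A transcript level for the whole gene thus says nothing about how much of a factor has been spliced or cleaved.

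Values are log2 signals after normexp background correction and quantile normalization, and a probe was called when limma's adjusted p over all 41174 probes was 0.05 or less with a change of at least 2-fold. Where a gene had several probes, the brightest by mean signal over the 12 arrays is probe 1. Signals of different probes are not compared with each other, because probes differ in how brightly they bind. The share of spots well above background was 39.6 to 61.8% per array, and the median signal of the negative controls was 202 to 1894. That median was 202, 617 and 537 on the Schmid arrays and 977 to 1894 on all others. This difference in background cannot be told apart from the Schmid genotype, and it bears on which dim probes count as well above background. All 8 chondrocyte markers and all 8 hypertrophic markers examined were well above background on every array, which matches the tissue label. Of the 17 member probes, 9 (from 6 genes) were well above background on all 12 arrays, 7 on some, and 1 on none.

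At the brightest probe of each gene, 4 of the 10 genes were called higher in Schmid than in wildtype and none lower. These were Atf6, Xbp1, Creb3 and Creb3l4. Across all genes read the same way, 11.5% were called in Schmid, 5.8% higher and 5.75% lower. In Cog, Atf6 was the 1 gene of 10 called, and it was higher, against 2.73% of all genes called, 1.89% higher and 0.837% lower. Over all probes the counts were 6 of 17 higher in Schmid, with 10.5% of all probes called and 5.78% called higher, and 1 of 17 higher in Cog, with 2.31% called and 1.56% called higher. The median change of the 10 genes was 0.41 in Schmid and 0.35 in Cog on the log2 scale, beside medians over all genes of −0.09 and −0.0031.

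**Figure D1:**
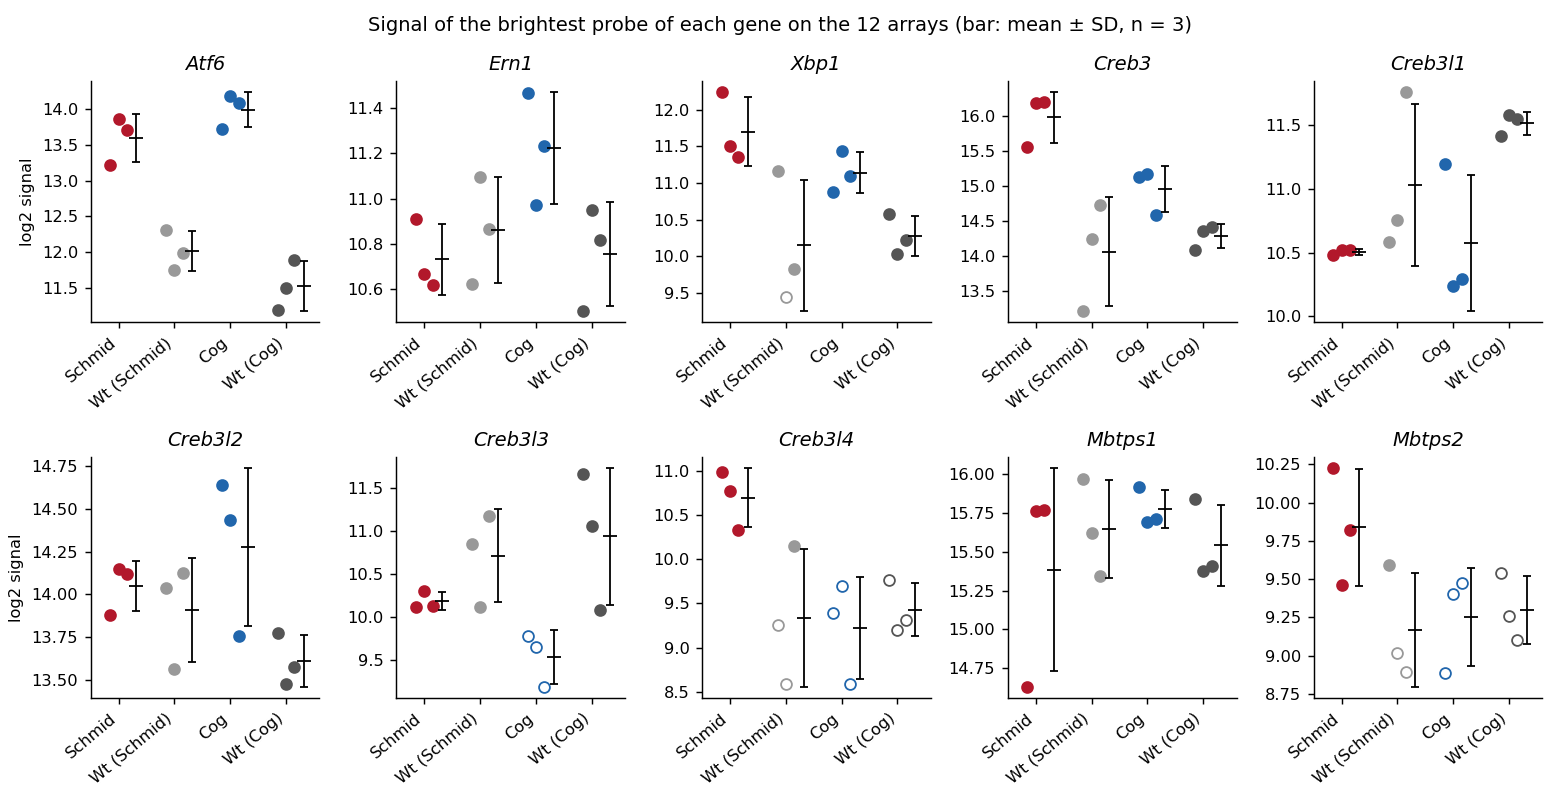
Log2 signal of the brightest probe of each of the 10 genes on the 12 arrays, by group (Wt, wildtype). Each point is 1 array, open where the probe was not well above background, and the bar is the mean ± SD (n = 3). The Atf6 points of both mutants (13.22 to 13.86 in Schmid, 13.71 to 14.18 in Cog) lie above every wildtype point, and the y axes differ between panels.

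Atf6 was the gene with the clearest difference in both mutants. At probe 1, the log2 signal was 13.22, 13.86 and 13.70 on the Schmid arrays and 12.31, 11.75 and 11.99 on the wildtype (Schmid) arrays. The Cog arrays read 13.71, 14.18 and 14.08 and the wildtype (Cog) arrays 11.18, 11.50 and 11.89. Mutant and wildtype arrays did not overlap on either background. The change was 2.99-fold in Schmid (log2 1.58, SE 0.24, limma adjusted p 0.00146) and, in Cog, 5.53-fold (log2 2.47, SE 0.24, adjusted p 0.00105).

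The less bright Atf6 probe was also higher in the mutants but ordered them the other way. It read 12.35, 11.99 and 12.17 in Schmid and 10.93, 10.82 and 11.14 in wildtype (Schmid), then 11.51, 11.88 and 11.76 in Cog and 11.49, 11.08 and 10.93 in wildtype (Cog). The Schmid arrays all exceeded their wildtype by a wide margin, while the lowest Cog array stood just above the highest wildtype (Cog) array. This was a 2.31-fold change in Schmid (adjusted p 0.00113), which was called, and a 1.46-fold change in Cog (adjusted p 0.0987), which was not. The Schmid effect minus the Cog effect was −0.89 at probe 1 (adjusted p 0.0960) and 0.66 at probe 2 (adjusted p 0.0898), so the probes disagreed in sign on which mutant had the larger rise and neither difference passed the test. The files place both probes on chromosome 1 of mm7, at chr1:170684024-170684083 and chr1:170685339-170685398 on the minus strand, under one and the same transcript record.

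Ern1, which encodes the Ire1 sensor, showed no called change. Its probe read 10.91, 10.67 and 10.62 in Schmid and 10.62, 11.10 and 10.87 in wildtype (Schmid), which overlap, and the change of −1.09-fold had an adjusted p of 0.618. In Cog the values were 11.47, 10.97 and 11.23 against 10.50, 10.95 and 10.82 in wildtype (Cog). All Cog arrays lay above their wildtype, the closest pair nearly touching, and the 1.38-fold difference (95% interval of the log2 change 0.07 to 0.86) had an adjusted p of 0.164.

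Xbp1, the bZIP factor downstream of Ire1, was called higher in Schmid. The values were 12.24, 11.50 and 11.36 in Schmid against 11.16, 9.45 and 9.83 in wildtype (Schmid), where the 9.45 was not well above background. Cog arrays read 10.88, 11.44 and 11.10 against 10.57, 10.03 and 10.23 in wildtype (Cog). No mutant array overlapped its wildtype, although wildtype (Schmid) replicate 1 came close to the lowest Schmid array. Xbp1 was 2.93-fold higher in Schmid (log2 1.55, SE 0.40, adjusted p 0.0200) and, in Cog, 1.82-fold higher (log2 0.87, SE 0.40, adjusted p 0.248), which was not called. The difference between the effects was 0.69 (95% interval −0.57 to 1.94, adjusted p 0.428). The call in Schmid was lost without Schmid replicate 1 (adjusted p 0.0772), without wildtype (Schmid) replicate 2 (0.0775) or 3 (0.0669), and when Schmid was fitted with its own wildtype alone (0.0703). The files do not say whether this single probe can tell the spliced from the unspliced transcript, so the value is for the gene as a whole.

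Creb3, the founding member of its family, rose in Schmid at both of its probes. Probe 2 spans an intron at chr4:43579345-43579988 (mm7, plus strand), so it reads spliced RNA, and its sequence is shown for that reason, in lower case throughout.

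Creb3 probe 2: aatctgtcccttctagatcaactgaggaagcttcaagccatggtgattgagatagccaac

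At this probe the Schmid arrays read 15.66, 14.69 and 14.61 and the wildtype (Schmid) arrays 13.51, 12.48 and 12.97. The Cog arrays read 13.91, 14.26 and 13.76 and the wildtype (Cog) arrays 13.52, 13.20 and 12.73. The Schmid arrays were therefore the highest of the 12, with Cog between them and both wildtype groups. The change was 3.995-fold in Schmid (log2 2.00, SE 0.34, adjusted p 0.00267) and, in Cog, 1.77-fold (adjusted p 0.193). Probe 1, at chr4:43580781-43580840, gave the same order of group means, with 15.56 to 16.19 in Schmid, 14.59 to 15.18 in Cog, 13.21 to 14.73 in wildtype (Schmid) and 14.09 to 14.41 in wildtype (Cog). Its change was 3.77-fold in Schmid (adjusted p 0.00376) and, in Cog, 1.60-fold (adjusted p 0.294). The Schmid effect exceeded the Cog effect by 1.24 at probe 1 and 1.17 at probe 2 on the log2 scale, and neither difference was called (adjusted p 0.110 and 0.119). Without wildtype (Schmid) replicate 3, the only array of its group scanned on the same day as the Cog arrays, the difference at probe 1 was 1.57 and was called (adjusted p 0.0438).

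Creb3l4, the family member known from prostate and testis, was near background in all groups but Schmid. It read 11.00, 10.78 and 10.33 in Schmid, all well above background, and 9.26, 8.59 and 10.15 in wildtype (Schmid), of which the 10.15 alone was well above background. The Cog arrays read 9.39, 9.70 and 8.58 and the wildtype (Cog) arrays 9.77, 9.20 and 9.31, none well above background. The Schmid arrays thus stood above the other 9, by a narrow margin over wildtype (Schmid) replicate 3. Before background correction and normalization, the Creb3l4 spot read 922, 2119 and 1327 in Schmid and 804 to 1790 in wildtype (Schmid). It read 1063 to 2305 in Cog and 1028 to 2010 in wildtype (Cog). The negative controls were brighter on all arrays of the other groups than on the Schmid arrays. Creb3l4 was 2.58-fold higher in Schmid (log2 1.37, SE 0.39, adjusted p 0.0309), and no fold is given in Cog because neither group was measured above background. This call was lost in 7 of 24 other settings, with adjusted p up to 0.113 when wildtype (Schmid) replicate 2 was left out. It was also lost without Schmid replicate 1 (0.102) or 2 (0.0806), without wildtype (Schmid) replicate 1 (0.0544), with its own wildtype alone (0.0635) and with the scanner software's processed signals (0.0542 and 0.0726).

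**Figure D2:**
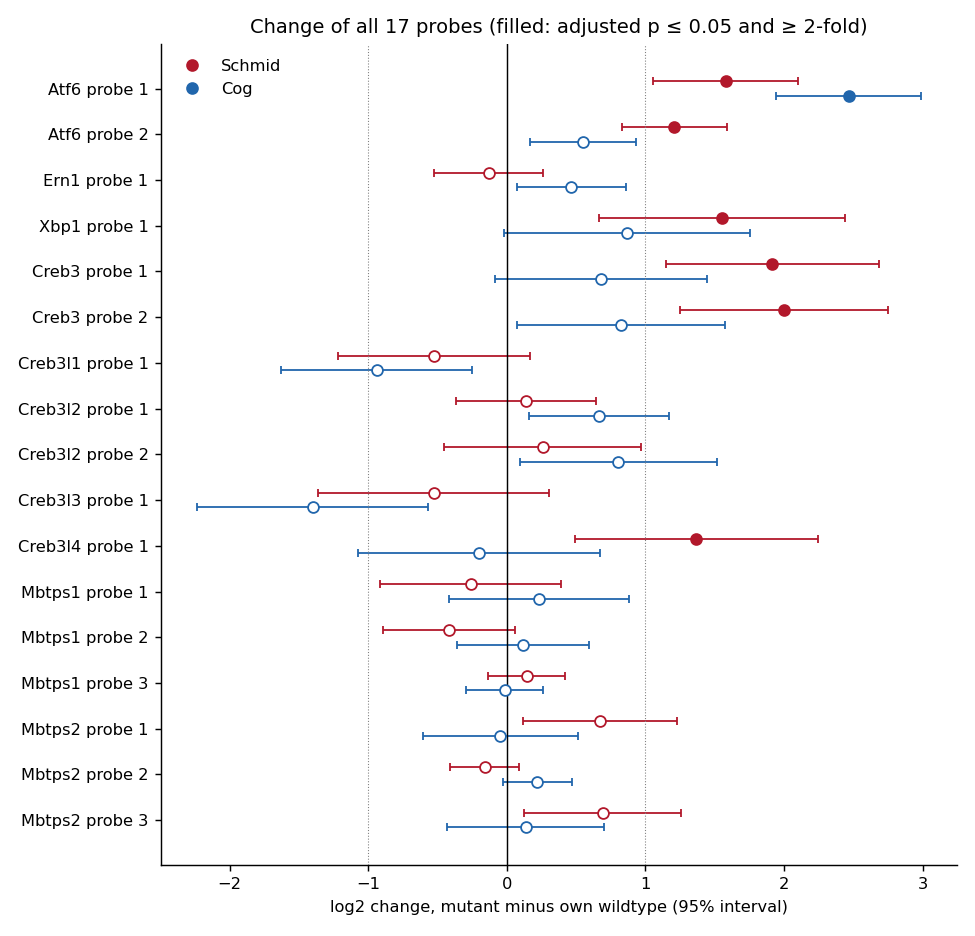
Log2 change of all 17 probes in Schmid (red) and Cog (blue), each mutant minus its own wildtype, with the 95% interval from limma. Filled points are called (adjusted p of 0.05 or less and at least 2-fold, dotted lines at −1 and 1), and probes not well above background are plotted too. The called points are both Atf6 probes, Xbp1, both Creb3 probes and Creb3l4 in Schmid, and Atf6 probe 1 in Cog at 2.47.

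The other family members were not called in either mutant, and their differences did not all point upward. Creb3l1, the OASIS factor, gave signals below those of wildtype in both. Its probe spans an intron at chr2:91834107-91836894 (mm7, minus strand) and so also reads spliced RNA.

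Creb3l1 probe: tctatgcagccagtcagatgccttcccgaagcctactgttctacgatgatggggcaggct

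Creb3l1 read 10.48, 10.52 and 10.52 in Schmid against 10.58, 10.75 and 11.76 in wildtype (Schmid). It read 11.19, 10.24 and 10.29 in Cog against 11.41, 11.58 and 11.55 in wildtype (Cog). Both mutants lay below all arrays of their wildtype, in Schmid by a narrow margin. The change was −1.44-fold in Schmid (adjusted p 0.235) and, in Cog, −1.92-fold (log2 −0.94, 95% interval −1.63 to −0.25, adjusted p 0.117). Osteoblast markers were summed beside it because Creb3l1 is a bone gene. Each marker sum is the log2 of the summed linear signals of the markers on an array, so the brightest markers weigh most. The osteoblast sum was 18.99 to 19.48 in Schmid and 19.40 to 20.22 in wildtype (Schmid). It was 19.22 to 19.68 in Cog and 19.57 to 19.88 in wildtype (Cog). The part of osteoblasts in the Creb3l1 values was not tested.

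Creb3l2, the cartilage member of the family, gave like differences at both of its probes. Probe 1 read 13.88, 14.15 and 14.12 in Schmid and 14.04, 13.56 and 14.12 in wildtype (Schmid), a 1.10-fold difference with overlap (adjusted p 0.679). In Cog it read 14.64, 14.43 and 13.76 against 13.78, 13.48 and 13.58 in wildtype (Cog), a 1.59-fold difference (adjusted p 0.125) with Cog replicate 3 inside the wildtype range. Probe 2 differed by 1.20-fold in Schmid (adjusted p 0.581) and, in Cog, 1.74-fold (adjusted p 0.182), where its groups did not overlap.

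Creb3l3, the liver member, was well above background on every array except the 3 Cog arrays. The values were 9.77, 9.65 and 9.18 in Cog against 11.66, 11.06 and 10.08 in wildtype (Cog), so it was at least 2.15-fold lower in Cog, taking as the Cog level the higher of its own signal and the dimmest measured signal on each array (adjusted p 0.0644 for the measured change of −1.40 on the log2 scale). It was not called there. Schmid arrays read 10.12, 10.30 and 10.13 against 10.85, 10.12 and 11.17 in wildtype (Schmid), which overlap (−1.44-fold, adjusted p 0.321).

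The Golgi proteases were not called at any probe. Mbtps1 probe 1 was bright on all arrays, with 14.63, 15.76 and 15.77 in Schmid, 15.97, 15.62 and 15.34 in wildtype (Schmid), 15.92, 15.69 and 15.71 in Cog and 15.84, 15.37 and 15.41 in wildtype (Cog). The groups overlapped on both backgrounds, and the change was −1.20-fold in Schmid (95% interval of the log2 change −0.91 to 0.39, adjusted p 0.541) and, in Cog, 1.18-fold (−0.42 to 0.88, adjusted p 0.695). The other probes of Mbtps1 and all probes of Mbtps2 were dim, each well above background on 0 to 6 arrays. The most often detected of the Mbtps2 probes was above background on all 3 Schmid arrays, at 10.23, 9.46 and 9.82, and on a single one of the remaining arrays, wildtype (Schmid) replicate 1 at 9.59. After normalization it was 1.59-fold higher in Schmid (limma adjusted p 0.0757), and it was not measured above background in Cog or its wildtype. Before background correction and normalization, this spot read 502, 840 and 916 in Schmid and 1296, 920 and 1077 in wildtype (Schmid). The negative controls were also dimmer on the Schmid arrays. A further Mbtps2 probe read 9.43, 8.92 and 9.01 in Schmid and 7.93 to 8.74 in wildtype (Schmid), and no fold is given because the 9.43 was the only value of the 6 well above background.

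Whether the mutants differed from each other was tested as the Schmid effect minus the Cog effect. None of the 10 genes was called at its brightest probe by limma, with 11.4% of all genes called, and none of the 17 probes, with 10.3% of all probes called. At an unadjusted p of 0.05 or less there were 4 of 10 genes (Atf6, Ern1, Creb3 and Creb3l4), with 33.8% of all genes, and 7 of 17 probes, with 32.5% of all probes. For Creb3l4 no difference is given, because it was not well above background on any Cog or wildtype (Cog) array. Between the wildtype groups, none of the 17 probes was called (0.469% of all probes were) and none reached an unadjusted p of 0.05 or less, as 14.1% of all probes did. The largest wildtype difference among the 10 genes was 0.49 at Atf6, higher in wildtype (Schmid) with an adjusted p of 0.391.

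Counting by overlap, the 3 mutant arrays lay wholly above the 3 wildtype arrays at 7 of 17 probes in Schmid and 8 of 17 in Cog, where 19.3% and 16.4% of all probes did so. They lay wholly below at 2 of 17 probes in each mutant, where 26% of all probes did so in Schmid and 13% in Cog. In Cog these were both Atf6 probes, Ern1, Xbp1, both Creb3 probes, Creb3l2 probe 2 and the Mbtps2 probe detected on 0 arrays, and all but Atf6 probe 1 stood above wildtype without being called.

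The arrays that carried these values were not alike in all respects. The 3 Schmid arrays filled a slide of their own, wildtype (Schmid) replicates 1 and 2 lay on another, replicate 3 shared the slide of the Cog arrays, and the wildtype (Cog) arrays had their own slide. As mutant and matching wildtype never shared a slide, the slide cannot be told apart from the genotype. Within the first scan day, which held the Schmid arrays and wildtype (Schmid) replicates 1 and 2, the log2 change was 1.57 for Atf6, 1.40 for Xbp1, 2.25 for Creb3 and 1.78 for Creb3l4 at the brightest probes, all called except Xbp1. All Cog and wildtype (Cog) arrays were scanned on the same day.

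Markers of cells that could adhere to the zone gave smaller sums in Schmid, where 4 of 7 endothelial, 1 of 6 osteoclast, 3 of 8 red cell and 3 of 9 plasma and B cell markers were called lower. Of all genes, 5.75% were called lower in Schmid. The log2 of the summed signals of 7 endothelial markers was 12.85 to 13.24 in Schmid and 14.61 to 15.27 in wildtype (Schmid). That of 6 osteoclast markers was 13.65 to 14.17 and 15.21 to 16.50, and that of 8 red cell markers 14.69 to 16.10 and 17.95 to 19.91. Plasma and B cell markers, summed because Xbp1 is a plasma cell factor, came to 12.98 to 13.25 in Schmid and 13.58 to 15.35 in wildtype (Schmid), with 6 or 7 of 9 well above background on each array of both groups. The osteoclast marker called lower was Mmp9, the brightest of the 6, which the authors list among hypertrophic cartilage markers. Sdc1, 1 of the 3 plasma and B cell markers called lower, is among their cartilage markers. These sums are thus not specific to adhering cells. Of the defining markers, endothelial Pecam1, osteoclast Atp6v0d2, the red cell gene Rhag and Igj, the joining chain of plasma cells, were each well above background on 0 of 12 arrays. Others were so on all 12, namely endothelial Cldn5, Emcn, Kdr and Tek, osteoclast Ctsk, Mmp9 and Oscar, the red cell genes Hbb-b1, Hba-a1, Alas2 and Slc4a1, and the plasma cell genes Mzb1 and Sdc1. In Schmid these sums were smaller, and Atf6, Xbp1, Creb3 and Creb3l4 were called higher. In Cog, Atf6 alone of the members was called higher. The endothelial sum was also smaller in Cog (13.86 to 14.57) than in wildtype (Cog) (14.99 to 15.68), while in Cog and its wildtype the red cell sums overlapped (16.61 to 18.16 and 17.20 to 18.23). The 8 marrow neutrophil markers did not follow this order. Their sums overlapped in Schmid and its wildtype (14.48 to 16.17 and 13.14 to 18.72), where Lcn2 was called higher (17.9-fold, adjusted p 0.00358), and lay wholly higher in Cog (14.51 to 16.93) than in wildtype (Cog) (13.52 to 14.01), with none called. The 8 hypertrophic markers also summed lower in Schmid, at 18.63 to 18.91 against 19.10 to 20.06. The part of these cell types in the member values was not tested.

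The known targets of these factors give the wider view. Of 56 pathway genes found on the array, 26 were called higher and 2 lower in Schmid, and 19 higher and none lower in Cog. Of all genes, 5.8% were called higher and 5.75% lower in Schmid, and 1.89% higher and 0.837% lower in Cog. The median change of the 56 was 0.83 in Schmid and 0.63 in Cog on the log2 scale.

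Genes of the Atf6 class, ER chaperones and degradation factors, moved together in both mutants. In Schmid 12 of 14 were called higher (median log2 change 2.07) and in Cog 14 of 14 were (median 2.08). Derl3, which helps to draw misfolded proteins out of the ER, was 19.3-fold higher in Schmid (adjusted p 2.43e-05) and, in Cog, 53.2-fold higher (adjusted p 5.87e-06). Hyou1, an ER chaperone of the Hsp70 type, was 4.55-fold higher in Schmid (adjusted p 0.00254) and, in Cog, 29.9-fold higher (adjusted p 0.000252). Pdia4, a disulfide isomerase, was 15.96-fold higher in Schmid (adjusted p 0.000736) and, in Cog, 8.14-fold higher (adjusted p 0.0133). The Cog call of Pdia4 was lost without wildtype (Cog) replicate 2 (adjusted p 0.0620) or 3 (0.0508).

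Targets ascribed to Xbp1, which serve protein import, folding and degradation, gave 7 of 15 called higher in Schmid (median 0.76) and 5 of 15 in Cog (median 0.84), and none lower. Dnajb9, an ER co-chaperone, was 9.65-fold higher in Schmid (adjusted p 0.000253) and, in Cog, 7.44-fold higher (adjusted p 0.00241). Dnajc3, another co-chaperone, which inhibits the Eif2α kinases, was 3.79-fold higher in Schmid (adjusted p 0.000514) and, in Cog, 5.16-fold higher (adjusted p 0.00116). Srp54, of the signal recognition particle, was 4.35-fold higher in Schmid (adjusted p 0.0160) and differed by 1.84-fold in Cog (adjusted p 0.366), which was not called. The Schmid call of Srp54 was lost without Schmid replicate 1 (0.0547) or wildtype (Schmid) replicate 2 (0.0577).

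Targets and partners of the CREB3 family gave 4 of 7 higher and 1 lower in Schmid, and 0 of 7 called in Cog. Of all genes, 11.5% were called in Schmid and 2.73% in Cog. Arf4, a Golgi GTPase whose gene is a target of this family, read a mean of 16.60 ± 0.43 (SD, n = 3) in Schmid and 14.18 ± 1.02 in wildtype (Schmid), then 13.77 ± 0.11 in Cog and 13.97 ± 0.65 in wildtype (Cog). It was 5.37-fold higher in Schmid (adjusted p 0.00544) and, in Cog, −1.15-fold (adjusted p 0.843). The difference between the effects was 2.63 on the log2 scale and was called (adjusted p 0.0246). The COPII coat genes Sec23a and Sec24d, which carry collagen out of the ER and are targets of Creb3l2, were 3.595-fold (adjusted p 0.0355) and 3.38-fold (adjusted p 0.0270) higher in Schmid. Their Cog values were −1.35-fold (adjusted p 0.698) and 2.18-fold (adjusted p 0.217), and the difference between the effects was not called for either (adjusted p 0.0714 and 0.557). The Schmid calls of Sec23a and Sec24d were lost when any single Schmid array was left out, and without wildtype (Schmid) replicate 2 or 3, with adjusted p up to 0.133 and 0.105, and that of Sec23a also without wildtype (Cog) replicate 2 (0.0511), with its own wildtype alone (0.0607) and with processed signals quantile normalized (0.0519). Hcfc1, a partner of Creb3 in transcription, was the remaining gene called higher in Schmid, and Col1a1, a collagen target of Creb3l1 and a bone marker, was the one called lower. These last genes are named to account for the count and were chosen after their values were seen.

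**Figure D3:**
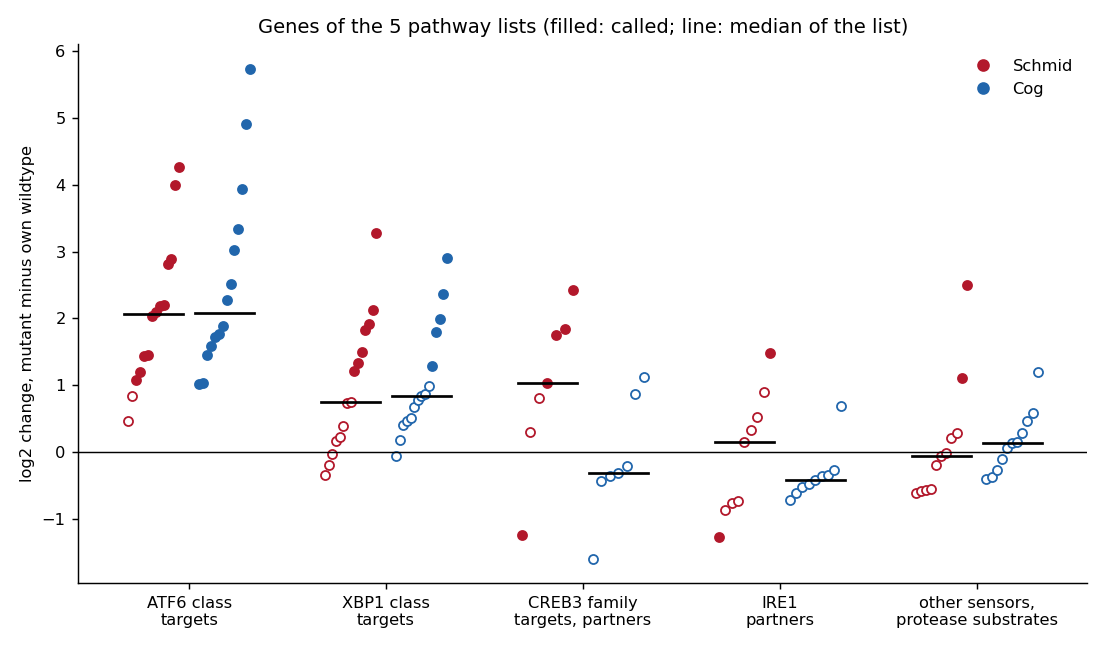
Log2 change of the genes of 5 pathway lists in Schmid (red) and Cog (blue), each point the brightest probe of 1 gene, filled where called, with a line at the median of the list. All 14 filled Cog points of the Atf6 class lie above 1, while no Cog point of the CREB3 family list is filled.

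Partners of Ire1 showed 1 of 9 genes higher and 1 lower in Schmid, and 0 of 9 called in Cog. These counts stand beside 11.5% of all genes called in Schmid and 2.73% in Cog. Zbtb8os, which belongs to the tRNA ligase complex that joins the Xbp1 exons, was 2.79-fold higher in Schmid (adjusted p 0.0258) and, in Cog, −1.64-fold (adjusted p 0.350), and the difference between the effects was 2.19 on the log2 scale (adjusted p 0.0284). Its wildtype means were 10.92 ± 0.76 (Schmid) and 12.35 ± 0.54 (Cog). The Schmid call of Zbtb8os was lost when any single Schmid array was left out, and without wildtype (Schmid) replicate 1 or 2, with adjusted p up to 0.0991. Ptpn1, an ER-bound phosphatase, was −2.40-fold in Schmid (adjusted p 0.00804) and, in Cog, −1.38-fold (adjusted p 0.349).

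Among the other sensors and the further substrates of the Golgi proteases, 2 of 11 were called higher in Schmid and 0 of 11 in Cog. Of all genes, 5.8% were called higher in Schmid and 1.89% in Cog. Eif2ak3, the Perk kinase, was 5.67-fold higher in Schmid (adjusted p 0.0208), where the wildtype (Schmid) mean of 11.61 had an SD of 1.49, and 2.31-fold in Cog (adjusted p 0.321). That call was lost when any single Schmid array was left out, without wildtype (Schmid) replicate 2 (adjusted p 0.0513), and with its own wildtype alone (0.0544). Srebf1, a membrane-bound regulator of lipid genes cut by the same proteases as Atf6, was 2.17-fold higher in Schmid (adjusted p 0.00154) and, in Cog, 1.38-fold (adjusted p 0.144). Srebf1 was also the 1 of 56 pathway genes called between the wildtype groups, 1.36 higher on the log2 scale in wildtype (Schmid) (adjusted p 0.00913).

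Which genes followed the members most closely was read from the 12 arrays, each gene's profile taken minus its own mean and compared by the root mean square difference over 10417 genes well above background throughout. Nearest to Atf6 were Dnajc3 (0.31 on the log2 scale), Syvn1 (0.35), a ubiquitin ligase of the ER, and Herpud1 (0.36), a part of the same degradation machinery, beside an SD of 1.11 for Atf6 itself. Nearest to Xbp1 were Golga5 (0.21), a golgin, H47 (0.25) and Mcrs1 (0.25), with an SD of 0.81 for Xbp1. Creb3 was followed by AW555464 (0.36) and by Phgdh (0.38) and Shmt2 (0.39), enzymes of serine metabolism, with its own SD at 0.87. Creb3l4 was followed by the less studied genes 1110057K04Rik (0.29), BC087945 (0.30) and 2310016A09Rik (0.31), with its own SD at 0.77. Creb3l4 itself was well above background on 3 Schmid arrays and 1 wildtype (Schmid) array only, so most of its profile lay near background.

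The binding element that Atf6 and Xbp1 recognize could be looked for in RefSeq promoter windows of 250 bases before to 50 after each start (build GRCm38.p6). This ER stress response element (ERSE) was searched as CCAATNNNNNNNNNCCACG on both strands. The Atf6 and Xbp1 classes were listed as known targets of factors that recognize this element, so their shares describe the lists and test nothing. The element occurred in 39 of 32851 windows, or 0.119%. Matches were in 7 of the 12 windows of the Atf6 class and in 2 of the 13 windows of the Xbp1 class. These matches are printed because they show the letters that these target genes share, each gene being called higher in Cog and each but Calr and Canx in Schmid, with the fixed bases in capitals, the spacer in lower case and each read on the strand of the match.

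Hspa5 (position −65): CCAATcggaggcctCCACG
Derl3 (position −156): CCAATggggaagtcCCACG
Creld2 (position −126): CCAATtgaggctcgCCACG
Pdia6 (position −98): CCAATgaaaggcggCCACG
Calr (position −162): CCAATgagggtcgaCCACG
Canx (position −145): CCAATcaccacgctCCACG
Dnajc3 (position −105): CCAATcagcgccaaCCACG
Syvn1 (position −44): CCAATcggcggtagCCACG

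Positions count the leftmost base of the match from the transcription start on the strand of the gene. The remaining gene with a match was Hsp90b1, which had it at positions −212 and −107. The shorter variant ATTGGNCCACG was in 12 of 32851 windows (0.0365%). Among them were those of Herpud1 and Dnajb11 of the Atf6 class and of Nucb1, from the list of other sensors and protease substrates. The letters TGACGTGG were in 222 (0.676%), among them those of Sec23a, Sec24d and Kdelr3 of the CREB3 list and of Mapk8, an Ire1 partner.

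The genes of the sensors and the CREB3 family had none of these letters. Windows were listed for 8 of the 10 genes, not for Atf6 or Creb3l1, and the full element, its shorter variant and TGACGTGG were in 0 of the 11 windows. The right-hand part of the element, CCACG, was in 6 of the 11 windows against 32.8% of all windows. It was in windows of Creb3 and Creb3l4, which were called higher in Schmid, and of Ern1, Creb3l3 and Mbtps1, which were not called, while the window of Xbp1, which was called, held it 0 times. Creb3 had it 3 times, at positions −153, −105 and −49, and the 250 bases before its start, chr4:43562408-43562657 (GRCm38.p6, plus strand), are shown with each CCACG, read on either strand, in capitals, because Creb3 had the largest change of the family.

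Creb3 upstream: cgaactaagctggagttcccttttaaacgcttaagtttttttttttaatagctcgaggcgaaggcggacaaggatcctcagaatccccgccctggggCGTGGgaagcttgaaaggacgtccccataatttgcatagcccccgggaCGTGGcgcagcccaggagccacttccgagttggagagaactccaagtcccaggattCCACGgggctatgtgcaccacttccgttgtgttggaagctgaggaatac

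A match of letters is a description of the window and not a binding site, and letters absent from a window of this length say nothing of the rest of the gene.

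**Figure D4:**
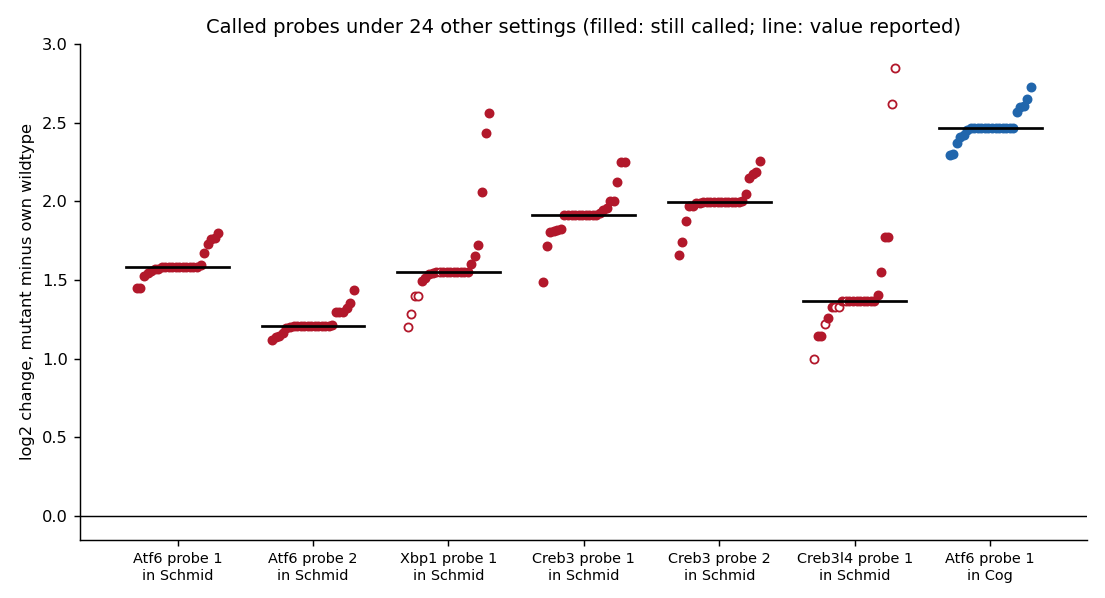
Log2 change of the 7 called probe and mutant pairs under 24 other settings of the processing (points, filled where still called), with a line at the value reported. The Atf6 and Creb3 points are all filled, while 5 of 24 points are open for Xbp1 and 7 of 24 for Creb3l4.

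Across 24 other settings of the processing, the calls of both Atf6 probes and both Creb3 probes in Schmid and of Atf6 probe 1 in Cog were kept in each. The log2 change of Atf6 probe 1 lay between 1.45 and 1.80 in Schmid and between 2.30 and 2.73 in Cog, and that of Creb3 probe 1 in Schmid between 1.49 and 2.25.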

How the data were processed

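Each of the 12 arrays carried amplified, Cy3-labelled RNA from the hypertrophic zone of 1 tibia. The authors deposited spot intensity values from Agilent Feature Extraction 9.5.3 (the submitters' processing notes) without normalization between arrays, and a series matrix of log2 values that the authors had background corrected and quantile normalized. The latter correlated at 0.999871 or more with the values made here and served as an alternative. Mean signals and local background of 45018 spots were combined by normexp (offset 50), spots with outlier flags (0.195%) and control spots were removed, and log2 values were quantile normalized, spots of the same probe then being averaged. Group means were fitted with limma 3.58.1 in R 4.3.3 on all 12 arrays with 8 residual degrees of freedom, with the Benjamini-Hochberg adjustment of p-values across all 41174 probes. Each mutant was compared with its own wildtype, the mutants by the difference of these effects, and the wildtype groups with each other. Intervals are at 95%. Fold changes below 1 are written as negative numbers.

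Gene names, accessions and probe coordinates (build mm7) are those of the scanner files, which do not annotate exons or untranslated regions. The number of arrays limits the precision. The labels give replicate numbers, and it is the paper's methods that state separate mice. The p-values rest on the spread among arrays of the same group. That spread holds dissection, amplification and hybridization as well as the mouse, and these parts cannot be told apart. The text names every member, the 3 genes of each pathway list with the largest change among those called in either mutant, and for each called member the 3 genes with the nearest profile. Members and lists were chosen with earlier results of these data known. Serp1, Sec31a, Crebzf, Esam and Ocstamp, on the pathway and marker lists, were not found by name. Lists were given no test. The fit was tested on simulated data first. Alternatives were the processed signals (scaled to the 75th percentile or quantile normalized), normexp values scaled to the 75th percentile, the deposited log2 values, outlier spots kept, dim probes left out, the replicate number as a block, slide as a random block, a trend over the 532 array rows removed, array weights, each mutant with its own wildtype alone, and each array left out. The scan day as a term was added after the data were seen.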

Additional observations from a re-analysis of the deposited data

Results flagged for a closer look

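Of the 56 pathway genes, 9 had effects that differed between Schmid and Cog by limma's test of the difference itself, where 11.4% of all genes did. The effect was higher in Schmid for 5 of the 9 and higher in Cog for 4, and no member differed. Higher in Schmid were Arf4, with a Schmid effect minus Cog effect of 2.63 on the log2 scale (adjusted p 0.0246), Zbtb8os with 2.19 (0.0284), D10Wsu52e, the catalytic subunit of the tRNA ligase, with 1.43 (0.0169), Hcfc1 with 1.34 (0.0471) and Tm7sf4, a fusion protein of osteoclasts, with 1.89 (0.0491). Tm7sf4 was well above background on 0 of 3 Cog arrays and 1 of 3 wildtype (Schmid) arrays, and Hcfc1 on 1 of 3 Cog arrays. Higher in Cog were Hyou1 with −2.72 (adjusted p 0.00709), Derl3 with −1.46 (0.0217), Edem1 with −1.17 (0.0299) and Sdf2l1 with −1.05 (0.0497). The wildtype means of Hyou1 were 13.03 ± 0.33 (Schmid, n = 3) and 11.71 ± 0.17 (Cog, n = 3). Derl3, Hyou1 and Sdf2l1 were called higher in both mutants, Arf4, Zbtb8os and Hcfc1 in Schmid and not in Cog, and Tm7sf4, D10Wsu52e and Edem1 in neither. D10Wsu52e, Tm7sf4, Edem1 and Sdf2l1 are named to complete the count.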

How the results depend on the processing

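Of 1195 recalculated values of member probes, 1131 kept their direction and their side of the threshold. The count of members called in Schmid was 4, and 2 with its own wildtype alone and 2 to 4 with 1 array left out. The counts without Schmid replicate 1 and without wildtype (Schmid) replicate 2 were the lowest. The count in Cog was 1, rising to 2 with dim probes left out, 2 with slide as a random block, 3 with array weights, and 1 to 2 with 1 array left out, where Creb3l3 was added without wildtype (Cog) replicate 3. Between mutants the count was 0, and it was 1 with slide as a random block, 1 with array weights, 2 with scan day as a term, and 0 to 2 with 1 array left out, the 2 being Creb3 and Creb3l4 without wildtype (Schmid) replicate 3, of which Creb3l4, also the gene added with slide as a random block, was not well above background on any Cog or wildtype (Cog) array. Pathway genes called numbered 19 to 29 in Schmid over all settings. In Cog they numbered 11 with processed signals at the 75th percentile and 13 to 21 with 1 array left out, against 19. The cause of these shifts was not tested.

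The processed signals at the 75th percentile moved the median change of all probes to −0.40 in Schmid and 0.43 in Cog, from −0.06 and −0.0044, and normexp values so scaled moved it to −0.35 in Schmid. The share of Schmid calls that were higher was 55.2%, and 42.5%, 42.0% and 42.6% with the processed signals at the 75th percentile, the processed signals quantile normalized and normexp at the 75th percentile.

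Arrays with the same replicate number correlated, after group means were removed, by 0.193, 0.171 and 0.066 in the Schmid comparison and by −0.116, 0.0721 and −0.106 in the Cog comparison over all probes. Over 12807 detected probes the values were 0.306, 0.283 and 0.117 for Schmid and −0.209, 0.153 and −0.201 for Cog. Between the wildtype groups they were 0.407, 0.0464 and 0.19 over all probes and 0.505, 0.115 and 0.274 over detected ones. The Schmid values were positive over both probe sets, and so were those between the wildtype groups, whose mice come from different backgrounds. The labels do not say whether the numbers pair mice, so the block was kept as an alternative. Of 6 arrays, 5 correlated best with their own number in the first comparison and 2 in the second. With the replicate block, members called were 4 in Schmid, 1 in Cog and 0 between mutants, and pathway genes called were 27 and 19. In Schmid 1 pathway gene was called lower with the block, against 2 without it. Ptpn1 kept its call, so the lost call was that of Col1a1. No call in Schmid or Cog changed for the members or for the pathway genes named by the size of their change.

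Direction turned at dim or little-changed probes, none of them called, as follows on the log2 scale. In Schmid, Mbtps1 probe 1 was 0.10 with processed signals quantile normalized and 0.10 with array weights, and −0.45 to 0.12 with 1 array left out. Mbtps1 probe 3 was −0.37 with normexp at the 75th percentile, Mbtps2 probe 2 was 0.18 with processed signals quantile normalized and 0.15 with the row trend removed, and Mbtps2 probe 3 was −0.086 with processed signals quantile normalized. With 1 array left out, Creb3l2 ranged from −0.031 to 0.25 at probe 1 and from −0.050 to 0.50 at probe 2. In Cog, the processed signals at the 75th percentile gave 0.58 for Creb3l4, −0.11 for Mbtps1 probe 1, 0.98 for its probe 3 and 0.85 for Mbtps2 probe 1, and quantile normalized they gave 0.19 for Creb3l4, 0.91 for Mbtps1 probe 3, −0.19 for Mbtps2 probe 3 and 0.086 for Arf4. Normexp at the 75th percentile gave −0.027 and 0.034 for Mbtps1 probes 1 and 3 and 0.00495 for Mbtps2 probe 1. Array weights gave 0.11 for Creb3l4, −0.00993 for Mbtps1 probe 2 and 0.029 for Mbtps2 probe 1, and the row trend removed gave 0.079 for Mbtps1 probe 3. With 1 array left out, the Cog ranges were −0.44 to 0.12 for Creb3l4, −0.12 to 0.26 and −0.084 to 0.037 for Mbtps1 probes 2 and 3, −0.16 to 0.14 and −0.044 to 0.29 for Mbtps2 probes 1 and 3, −0.57 to 0.047 for Arf4 and −0.86 to 0.039 for Sec23a. Between mutants, the processed signals at the 75th percentile gave 0.19 for Creb3l2 probe 1, 0.056 and −0.31 for Mbtps1 probes 1 and 3 and −0.75 for Mbtps2 probe 3. Quantile normalized they gave −0.41 for Mbtps1 probe 3, normexp at the 75th percentile gave −0.40 for the same probe and −0.011 for Mbtps2 probe 3, and the row trend removed gave 0.075 for Mbtps2 probe 2.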
